A study of Mus musculus with 6 samples.

Results

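Naive CD8 T cells of the liver of mice on a fatty diet were taken from droplet single-cell RNA libraries as the barcodes that met a fixed rule on receptor chains and unique molecular identifiers (UMIs, each standing for 1 captured transcript). A barcode had to carry both a T cell receptor (TCR) alpha and a beta contig and no TRAV11 or TRAV11D contig joined to TRAJ18, the alpha chain of invariant natural killer T (iNKT) cells. It also had to hold at least 1 UMI of Cd8a or Cd8b1, at least 1 of Lef1 or Ccr7, and 0 of Cd4, Gzmk, Ccl5, Zbtb16, Zfp683 and Cd79a. The rule gave 948 of 23860 barcodes. WT HFD contributed 247 of its 6479 barcodes, WT HFD+HDCA gave 373 of 10228, and 328 of 7153 came from iNKT KO HFD+HDCA.

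All mice ate a diet with 60% fat for 12 weeks. The first group was wild type on that diet alone, the next was wild type with the bile acid hyodeoxycholic acid (HDCA) added at 0.25%, and the last was Ja18-/- (iNKT KO) on the diet with HDCA, so that genotype and HDCA can each be compared in a single pair of groups. From each group, 10000 sorted liver mononuclear cells gave 1 RNA and 1 TCR library. The sort is given as CD45+ in the extraction text and as CD4+ in the treatment text, and no source used here gives the number of mice. Because every group is a single library, differences between groups carry no test and the intervals cover counting error only.

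A naive CD8 T cell has left the thymus and has not yet met its antigen. It is kept in a resting state by transcription factors such as Tcf7, Lef1 and Klf2, survives on interleukin-7 through Il7r and circulates through lymph nodes with the help of Ccr7. After priming, such cells lose much of this programme and gain cytotoxic molecules, chemokine receptors for inflamed tissue and, in the liver, features of residency.

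The 3 RNA libraries held 44332213 to 70776925 UMIs, of which 2003565 to 3001688 lay in naive CD8 T cells, at a median of 7572 to 7704 UMIs per cell. Scrublet called 3 of the 948 cells doublets. Between 67 and 93 barcodes were shared by any pair of libraries, and 3 to 7 naive CD8 T cells per pair had a barcode that the other library also held, though never as a naive CD8 T cell. Markers of other cells were low but uneven. In iNKT KO HFD+HDCA, Cd74 had 820 UMIs, 90.4% of them in a single cell, and in WT HFD, Lyz2 had 529 UMIs, 97.9% of them in a single cell. The summed myeloid list stood at 512, 128 and 141 CPM, where CPM is a gene's UMIs scaled to a total of 1000000 UMIs of the cells summed. These and all later triplets start with WT HFD, go on with WT HFD+HDCA and end with iNKT KO HFD+HDCA. The B cell list stood at 120, 150 and 540 CPM, and C1qa, a Kupffer cell gene, had 0 UMIs in each library.

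The clearest feature of the receptors was that nearly every cell had its own. Alpha contigs were read at a median of 3 to 4 UMIs and beta contigs at 11 to 12. Only 3 clonotypes, defined by the nucleotide CDR3 of both chains, held 2 naive CD8 T cells each, and all 3 came from iNKT KO HFD+HDCA. They are shown with the bases that match neither the common V nor the common J end in capitals, together with the only alpha chain (V segment, J segment and CDR3) found in naive CD8 T cells of 2 libraries.
TRAV14N-2/TRAJ12 alpha: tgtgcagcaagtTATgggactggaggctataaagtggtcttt
its partner, TRBV13-2/TRBJ1-4 beta: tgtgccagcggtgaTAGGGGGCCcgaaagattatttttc
TRAV8N-2/TRAJ13 alpha: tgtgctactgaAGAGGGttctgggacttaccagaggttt
its partner, TRBV12-2+TRBV13-2/TRBJ2-7 beta: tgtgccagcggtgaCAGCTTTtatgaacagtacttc
TRAV6N-7/TRAJ6 alpha: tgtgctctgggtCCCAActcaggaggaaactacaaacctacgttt
its partner, TRBV1/TRBJ2-7 beta: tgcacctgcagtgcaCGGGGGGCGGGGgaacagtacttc
TRAV12D-3/TRAJ23 alpha, 1 cell in each wild-type library: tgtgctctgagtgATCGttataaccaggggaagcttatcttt
The 2 cells of each pair had barcodes that differed at 12, 14 and 12 of 16 letters. Their alpha contigs rested on 1 to 3 UMIs and their beta contigs on 4 to 11. With at least 3 UMIs of Cd8a and Cd8b1 together required of each cell, 1 of the 3 pairs was left.

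Naive CD8 T cells made up 12.6% of T cells with both chains of the WT HFD library (247 of 1954 cells, exact Clopper-Pearson 95% interval 11.2% to 14.2%), with iNKT-type cells left out of the denominator. They made up 13.1% with HDCA (373 of 2846, 11.9% to 14.4%) and 16.6% in iNKT KO HFD+HDCA (328 of 1970, 15.0% to 18.4%). The wild-type libraries lay close together, and the knockout library lay above both. The ratio of shares was 1.04 (0.892 to 1.20) for WT HFD+HDCA over WT HFD and 1.27 (1.11 to 1.46) for iNKT KO HFD+HDCA over WT HFD+HDCA. A narrower denominator held CD8 T cells without a UMI of Cd4, Zbtb16, Zfp683 or Cd79a (803, 1340 and 855 cells). Of these, naive cells were 30.8%, 27.8% and 38.4%, and the same ratios were 0.905 (0.791 to 1.04) and 1.38 (1.22 to 1.56). The part of the CD8 T cells left out in these ratios was not tested. Of all barcodes, naive CD8 T cells were 3.81%, 3.65% and 4.59%. Shares over these denominators cannot separate more naive cells from fewer of the others.

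**Figure D1:**
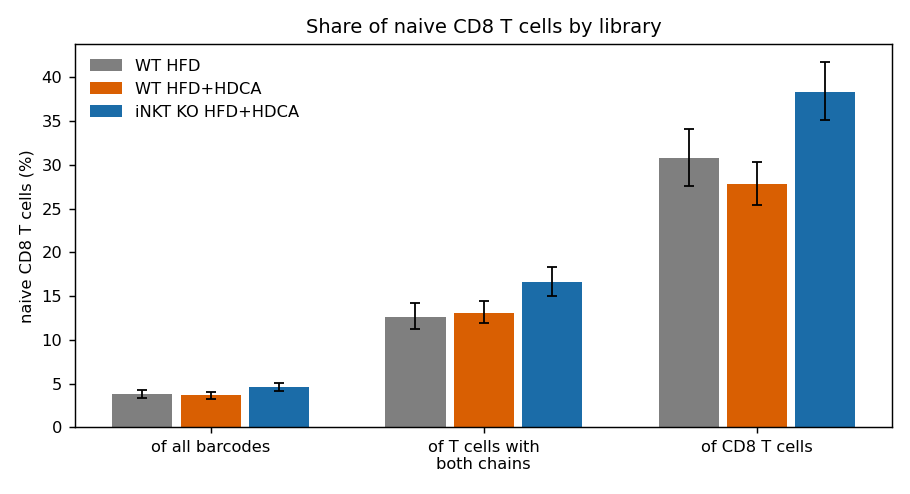
Share of naive CD8 T cells (percent) among all barcodes, T cells with both chains and CD8 T cells, with a bar per library. Intervals are exact 95% intervals for counting error. The CD8 T cells of the last denominator are those without a UMI of Cd4, Zbtb16, Zfp683 or Cd79a. The knockout bar is the highest of the 3 in each denominator, for example 38.4% of these CD8 T cells against 30.8% and 27.8%.

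The cells carried the genes that go with their label, with an exception for 2 of the 4 given markers when set against naive CD4 T cells. The latter were 828 barcodes picked by the same rule with Cd4 in place of Cd8a and Cd8b1 and no Foxp3. Cd8b1 (ENSMUSG00000053044), which the rule used, stood at 1309, 1347 and 1337 CPM and was seen in 99.2% to 100% of cells. Dapl1 (ENSMUSG00000026989), a gene known to be enriched in naive and stem-like T cells, stood at 446, 485 and 404 CPM against 245, 233 and 269 CPM in naive CD4 T cells, so every library had more of it in CD8 cells. Igfbp4 (ENSMUSG00000017493), which encodes a binding protein of insulin-like growth factors, ran the other way, at 404, 442 and 395 CPM against 813, 801 and 931 CPM. Lef1 (ENSMUSG00000027985), also a rule gene, stood at 866, 826 and 776 CPM against 1001, 890 and 960 CPM. Igfbp4 therefore marked naive T cells of both lineages rather than CD8 cells. Lef1 cannot decide this, because both rules asked for a UMI of Lef1 or Ccr7.

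A further set held CD8 T cells with at least 1 UMI of Gzmk or Ccl5 and 0 of Cd4, Zbtb16, Zfp683 and Cd79a (2041 barcodes). Set against these cells, called antigen-experienced here, all 4 markers were higher in the naive cells of each library. Because the rule itself separates these groups, the values are a description. Dapl1 was at 128, 105 and 145 CPM and Igfbp4 at 32.8, 54.8 and 52.8 CPM in the antigen-experienced cells, and Lef1 at 314, 322 and 337 CPM. S100a6, a calcium-binding protein of activated and memory T cells, was at 60.9, 39.0 and 61.9 CPM in naive CD8 cells and at 1055, 644 and 620 CPM in the antigen-experienced ones. Gzma and Gzmb, which encode granzymes of the cytotoxic granule, stood at most at 7.33 and 7.93 CPM in naive cells and at 341 to 635 CPM and 150 to 425 CPM in the others. Ifng, the gene of interferon gamma, had 0, 13 and 4 UMIs in naive CD8 cells.

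Cytotoxic genes were nevertheless not absent. Nkg7, a protein of the lytic granule, was at 485, 614 and 560 CPM and had a UMI in 88.3%, 90.9% and 84.8% of naive CD8 cells. When each cell was thinned to 2000 UMIs, 54.1%, 66.2% and 57.8% of them kept a UMI of Nkg7, compared with 2.1% to 3.4% of B cells, a cell type that lacks it (median 4329 to 4555 UMIs per cell before thinning). Klrd1, a subunit of natural killer receptors, stood at 242, 292 and 315 CPM, and Ly6c2, a surface protein that is high on memory CD8 cells, at 510, 618 and 515 CPM. Perforin, encoded by Prf1, was at 30.4, 29.0 and 29.8 CPM in naive CD8 cells and at 118, 104 and 68.6 CPM in antigen-experienced ones.

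**Figure D2:**
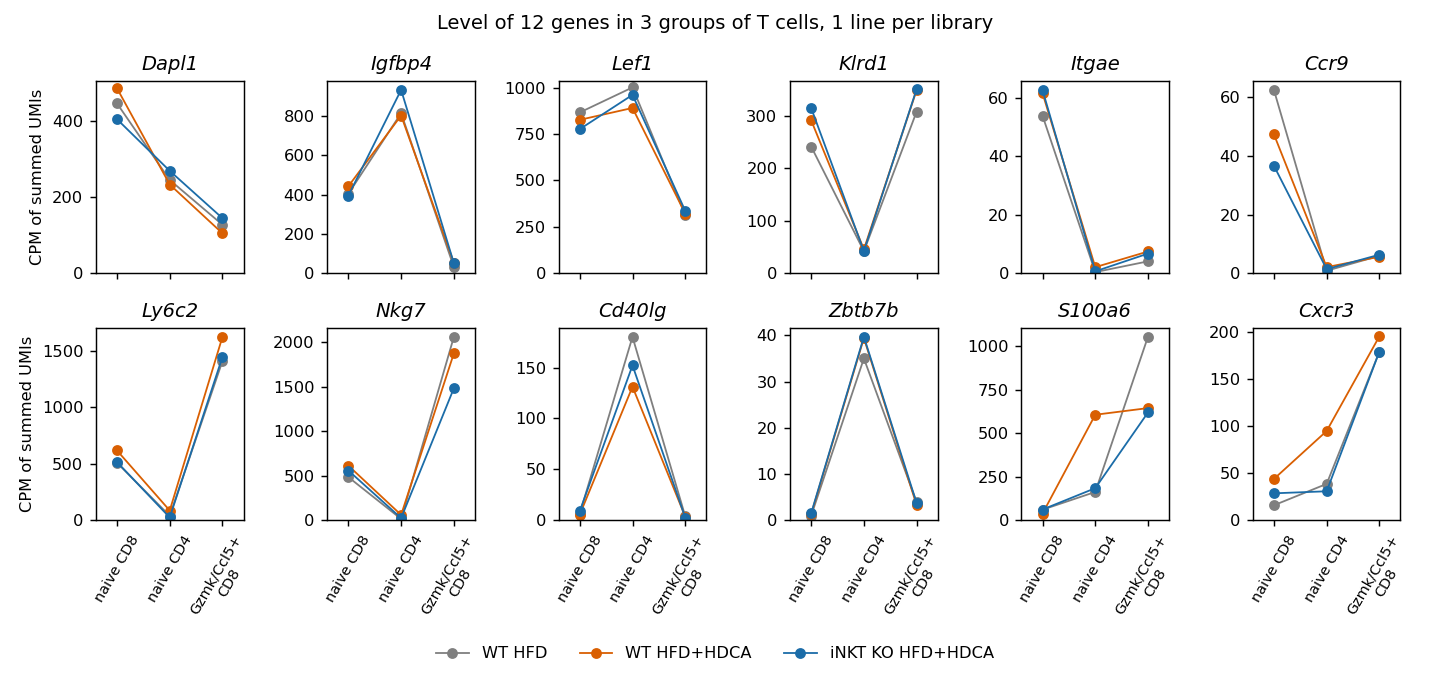
Level of 12 genes (CPM of summed UMIs, linear axis from 0) in naive CD8, naive CD4 and antigen-experienced (Gzmk/Ccl5+) CD8 T cells, a line per library. Itgae and Ccr9 peak in naive CD8 cells, Igfbp4 peaks in naive CD4 cells (801 to 931 CPM), and Nkg7 and Ly6c2 peak in antigen-experienced cells.

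The median cell held 12 UMIs of Lef1 and Ccr7 together in each library and 13 to 14 of Cd8a and Cd8b1, and only 4 of the 948 cells rested on a single UMI of Lef1 or Ccr7. Just outside lay 45, 61 and 50 cells with exactly 1 UMI of Gzmk and Ccl5 together. Their Dapl1 level was 480, 463 and 372 CPM, near that of the cells inside, whereas Igfbp4 was 256, 414 and 295 CPM and Cxcr3 68.9, 50.7 and 87.3 CPM. Cells with 2 or more such UMIs had Igfbp4 at only 16.4, 33.9 and 30.4 CPM. Inside the rule, 8, 12 and 12 cells had a single UMI of Cd8a or Cd8b1, and their Igfbp4 level of 1107, 495 and 573 CPM was above that of all naive CD8 cells. Their Nkg7, at 20.1, 179 and 75.4 CPM, and Dapl1, at 141, 289 and 256 CPM, were below it, so that all 3 genes lay towards the levels of naive CD4 T cells. With at least 3 UMIs of Cd8a and Cd8b1 required, 1 of the 59 UMIs of Ly6c1 was left in naive CD8 cells, with 5 of 10 for Zbtb7b and 31 of 54 for Cd40lg.

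Within the naive CD8 cells, Ly6c2 was lower, though not absent, in cells with a UMI of Itgae. Itgae encodes the alpha E integrin (CD103), which binds E-cadherin on epithelium, and had a UMI in 68, 113 and 102 cells. Those cells carried Ly6c2 at 254, 345 and 246 CPM, against 605, 728 and 637 CPM in the cells without Itgae. They carried more Igfbp4, at 666, 664 and 502 CPM against 306, 352 and 347 CPM. Ccr9, the receptor for the gut and thymus chemokine Ccl25, was also higher in them, at 71.4, 76.0 and 63.0 CPM against 59.0, 35.6 and 24.7 CPM. All 3 libraries had the same order for these genes, and the median depths were alike, at 7514.5 to 7959.5 UMIs with Itgae and 7566 to 7743 UMIs without.

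Splitting by Ly6c2 (with a UMI in 107, 199 and 145 cells) gave the opposite order for Itgae and Ccr9, which were lower with Ly6c2. Itgae was at 47.4, 39.2 and 34.8 CPM with Ly6c2 and at 60.0, 93.4 and 91.7 CPM without. Ctsw, a cathepsin of cytotoxic cells, did not follow this contrast, being higher both with Ly6c2 (339, 385 and 401 against 231, 270 and 254 CPM) and with Itgae (357, 357 and 356 against 256, 330 and 317 CPM). Igfbp4 was lower with Ly6c2, at 400, 357 and 364 against 409, 564 and 428 CPM, though by little in WT HFD. Cells with Ly6c2 carried more Dapl1, at 530, 550 and 485 CPM against 367, 394 and 321 CPM, and more Il2rb, a receptor chain for interleukin-2 and interleukin-15, at 129, 161 and 140 CPM against 77.4, 88.6 and 77.9 CPM. Cd5, whose level in naive cells is known to follow the strength of self-recognition, was at 194, 171 and 155 CPM with Ly6c2 and at 119, 110 and 112 CPM without. Cxcr3, a chemokine receptor of activated and memory cells, was at 29.9, 65.9 and 41.4 CPM against 2.90, 12.9 and 15.4 CPM. Cells with Ly6c2 were also deeper, at a median of 8404 to 8981 UMIs against 6800 to 7387 UMIs, and the part of depth in these differences was not tested. Both genes of these splits were chosen after their levels had been seen.

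HDCA in wild-type mice went with few differences in these cells. Among 7739 genes with at least 50 UMIs over both wild-type libraries, 65 (0.84%) were at least 2-fold apart, 39 higher (0.504%) and 26 lower (0.336%) in WT HFD+HDCA, and 53.4% of all genes had a ratio above 1. Among genes with no cell holding over 20% of the UMIs and past the other limits on named genes, Slc15a2, a peptide transporter, stood furthest apart: 2.0, 19 and 1.51 CPM in the 3 libraries, from 4, 57 and 4 UMIs. The high value in WT HFD+HDCA came from 48 cells, and the ratio to WT HFD was 9.51 (3.52 to 36.1). The same library stood apart in naive CD4 T cells, at 2.80, 19.4 and 0 CPM, and in antigen-experienced CD8 T cells, at 4.56, 17.6 and 1.03 CPM. The same order thus held in all 3 cell types.

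The other named genes higher with HDCA included several known from memory and effector T cells. Ctla2a, a cysteine protease inhibitor of activated T cells, was at 15.0 CPM without and 50.6 CPM with HDCA, a ratio of 3.38 (2.27 to 5.18). In naive CD4 T cells Ctla2a was also highest in that library, at 9.80, 18.9 and 11 CPM. Cxcr3 was at 16 and 44 CPM, a ratio of 2.75 (1.86 to 4.19), with UMIs in 25 and 69 cells, and the ratio was 1.60 when the rule was read on cells thinned to 2000 UMIs. Naive CD4 T cells had Cxcr3 at 38.7, 95 and 30.9 CPM, again highest in WT HFD+HDCA. Their S100a6 was also seen most often in that library, in 8.05%, 18.8% and 10.2% of cells thinned to 2000 UMIs. The part of memory-like CD4 cells in these Ctla2a and Cxcr3 values was not tested. Samd3 had a ratio of 4.17, Ifngas1, a noncoding RNA beside the interferon gamma gene, 3.56, Ly6k 3.03, Nedd1, a centrosome protein, 2.79, and Slc35a2, a nucleotide sugar transporter, 2.61. On the lower side were H2bc18, a histone gene, at a ratio of 0.343, Rundc1 at 0.359, Zfp268 at 0.396, Josd1 at 0.400, Plaur, the urokinase receptor, at 0.428, Usp50 at 0.459, Camk2b at 0.466 and Plekhm1 at 0.481. These 8 lower genes rested on 51 to 124 UMIs over both libraries.

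Gene lists moved little as groups. Of 15 measured memory genes, 11 were higher and 4 lower with HDCA, and their median log2 ratio was 0.23, beside 0.02 over all genes tested. Within that list Ly6c2 had a ratio of 1.21 (1.12 to 1.31), with 19.4% of its WT HFD UMIs in a single cell, and Crip1 of 1.0 (0.935 to 1.07), and Cd44, the adhesion receptor used to define memory T cells, had 23 and 71 UMIs, a ratio of 2.06 (1.27 to 3.46). S100a6 went the other way at 0.640 (0.492 to 0.832), with 46.7% of its UMIs in WT HFD in a single cell. Of 19 TCR signalling genes 14 were higher and 5 lower (median 0.07), of 12 quiescence genes 3 were higher and 9 lower (median -0.08), and of 18 immediate early genes 5 were higher and 13 lower (median -0.09). Nkg7, at a ratio of 1.27 (1.17 to 1.37), and Cst7, an inhibitor of granule proteases, at 1.49 (1.22 to 1.83), were higher among 6 measured cytotoxic genes, 3 of which were higher and 3 lower. The 11 naive transcription factors split into 7 higher and 4 lower, with Klf2 at 0.945 (0.898 to 0.995), Lef1 at 0.954 (0.897 to 1.02) and Tcf7 at 0.951 (0.888 to 1.02).

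Lipid genes did not stand out. Of 12 sterol genes 4 were higher and 8 lower with HDCA (median -0.09), and of 13 fatty acid genes 6 were higher and 7 lower (median -0.02). Receptors that bile acids or glucagon-like peptide-1 could act on were at or near 0 in naive CD8 cells. Glp1r and Nr1h4, the bile acid receptor FXR, had 0 UMIs in each library, which allows at most 1.5, 0.999 and 1.13 CPM. Gpbar1, the membrane receptor TGR5, had 2, 0 and 0 UMIs and Ppara 1, 0 and 1.

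The knockout on the HDCA diet also differed in few genes. Among 8035 genes tested, 53 (0.66%) were at least 2-fold apart, 21 higher (0.261%) and 32 lower (0.398%) in iNKT KO HFD+HDCA than in WT HFD+HDCA, and 47.1% had a ratio above 1. This comparison shares WT HFD+HDCA with the previous one, so a value that is high in that library alone appears in both. Slc15a2 is such a case, with a ratio of 0.0795 (0.0210 to 0.215), and so is Ifngas1, at 4.49, 16.0 and 6.04 CPM.

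Il1rapl1, a member of the interleukin-1 receptor family, was the furthest above within the same limits on named genes, at 46.4 CPM compared with 11.7 CPM (ratio 3.98, 2.72 to 5.98), seen in 99 and 33 cells. Naive CD4 T cells were likewise highest for Il1rapl1 in the knockout library, at 9.33, 8.10 and 54.4 CPM. Dok2, an adaptor that restrains TCR signalling, was at 75.9 and 32.6 CPM (ratio 2.32, 1.82 to 2.99). Hspa1b, an inducible heat shock protein, had a ratio of 2.93 (1.97 to 4.43), from levels of 20.5, 12.0 and 35.1 CPM. Naive CD4 T cells had the same order for Hspa1b, at 25.2, 12.4 and 44.8 CPM. Basp1 (2.64), Zbtb38 (2.16), Klhl20 (2.14), Dynlt1c (2.06) and Nipal1 (2.05) completed the higher genes.

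Among genes lower in the knockout, Rpgrip1 had a ratio of 0.212 (0.104 to 0.397), Cdk5rap1, a tRNA-modifying enzyme, 0.310, and Tmem254 0.327, the last from 180 and 52 UMIs. Kif20b, a kinesin of cell division, was at 0.332, and 0.728 when the rule was read on thinned cells. Hells, a chromatin remodeller, was at 0.359 (0.202 to 0.610) and Izumo1r, the folate receptor 4 of CD4 T cells, at 0.387 (0.265 to 0.556). Izumo1r stood at 24.5, 40.0 and 15.5 CPM, so that WT HFD+HDCA was the highest and the knockout the lowest. By chromosome, 7 of the 53 genes (13.2%) lay on chromosome 14, which carries 3.36% of the genes tested and the TCR alpha locus, among them Dok2, Rpgrip1, Ngly1, Sh3bp5 and Lgals3. In the comparison of the wild-type libraries 1 of 65 genes did, and it was Lgals3, which is thus in both counts. These counts had no limit on the share of UMIs in a single cell.

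**Figure D3:**
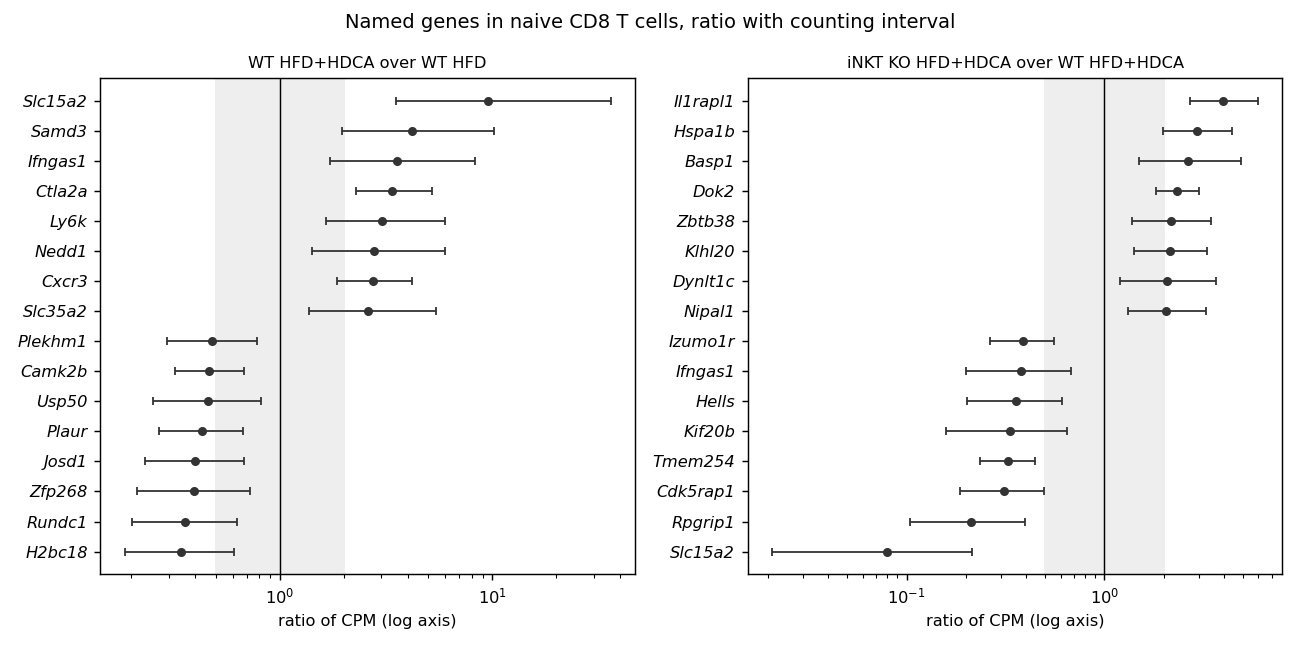
Ratio of CPM (log axis) for the 16 named genes of each comparison, WT HFD+HDCA over WT HFD at the left and iNKT KO HFD+HDCA over WT HFD+HDCA at the right, with 95% intervals for counting error and the range within 2-fold shaded. Slc15a2 lies at both extremes, with ratios of 9.51 and 0.0795, because WT HFD+HDCA is in both comparisons.

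As groups, quiescence genes were mostly higher in the knockout library, 11 of 12, with a median log2 ratio of 0.14 beside -0.02 over all genes. Btg2, an antiproliferative factor, was at 254, 226 and 279 CPM (ratio 1.24, 1.11 to 1.37), Tsc22d3, a glucocorticoid-induced gene, at 701, 701 and 823 CPM, and Btg1 at 843, 799 and 868 CPM. Il7r was at 714, 653 and 785 CPM (ratio 1.20, 1.13 to 1.28), so the knockout was the highest and WT HFD+HDCA the lowest. Interferon response genes were mostly lower, 14 of 20 with 6 higher and a median of -0.24, as in Bst2 at 0.756 (0.651 to 0.878), while Ifi47 was at 1.17 (1.07 to 1.28). TCR signalling genes were higher in 5 and lower in 14 of 19 (median -0.11), and cytotoxic genes higher in 1 and lower in 5 of 6 (median -0.47). Summed, both lists were highest in WT HFD+HDCA, which both comparisons share, at 7618, 8110 and 7844 CPM and 666, 883 and 758 CPM. The quiescence list summed to 15528, 15085 and 15753 CPM and the interferon list to 2111, 2033 and 1946 CPM. Of 17 memory genes 8 were higher and 9 lower. S100a4 stood out among them at 13, 10.3 and 42.7 CPM, but 47.8% of its UMIs in the knockout were in a single cell.

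The knockout showed in the alpha chains of the naive CD8 cells. TRAJ segments are joined to V segments from across the locus and are numbered towards the V side, so TRAJ19 and higher lie beyond TRAJ18, the deleted segment, as seen from the constant gene. TRAJ19 and higher made up 77.3% of alpha chains in WT HFD (208 of 269, 71.8% to 82.2%) and 72.7% with HDCA (296 of 407, 68.1% to 77.0%). In iNKT KO HFD+HDCA they made up 3.90% (14 of 359, 2.15% to 6.46%). The knockout interval lay far below both others. TRAJ18 itself was in 3, 4 and 0 chains, and 0 of 359 allows a share of up to 0.836%. The number of TRAJ segments in use was 41, 43 and 24.

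Knockout naive CD8 cells instead used the segments between TRAJ18 and the constant gene. TRAJ12 was in 12.3% of their alpha chains, TRAJ9 in 12.0%, TRAJ7 in 10.9% and TRAJ17 in 10.0%, compared with 1.49% to 3.72% for these 4 segments in the wild-type libraries. The 14 exceptional knockout chains used 12 segments, rested on a median of 2 contig UMIs against 4 for the other 345, and 4 of them had a single UMI. With contigs of at least 3 UMIs the share of TRAJ19 and higher in the knockout was 1.85%. Naive CD4 T cells of the same library had 9.09% (21 of 231, 5.72% to 13.6%) and antigen-experienced CD8 T cells 9.66% (54 of 559, 7.34% to 12.4%), of which TRAJ50 and higher gave 5.63% and 4.29%, beside 0.836% in naive CD8 cells.

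**Figure D4:**
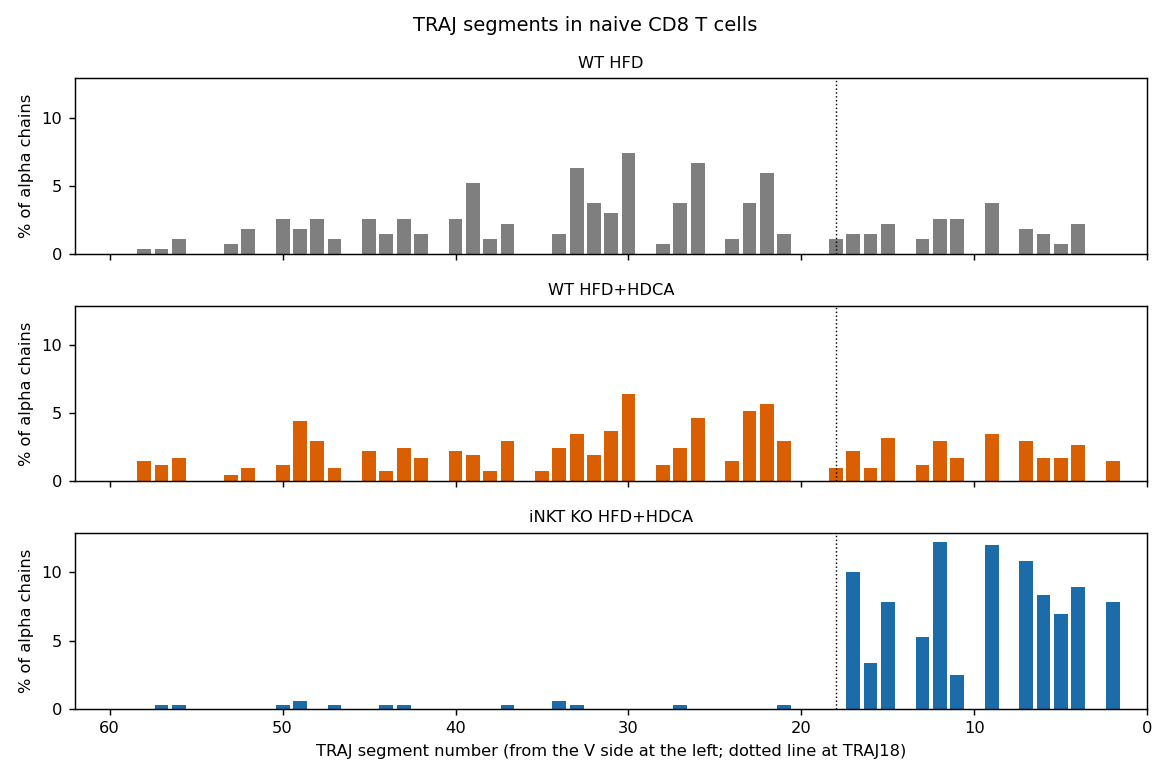
Percent of alpha chains of naive CD8 T cells by TRAJ segment number, a panel per library, with the V side at the left and a dotted line at TRAJ18. In the wild-type panels the chains spread over 41 and 43 segments, and in the knockout panel 96.1% lie at TRAJ17 and lower.

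V segments differed by less. TRAV12 was in 15.6% and 16.5% of wild-type and 8.64% of knockout alpha chains, and TRAV8 stood at 5.58%, 4.42% and 10.3%, TRAV7 at 9.29%, 7.86% and 13.4%, and TRAV6 at 11.9%, 17% and 14.5%. Beta chains, whose locus was not altered, were more alike. TRBV13-3 was at 8.53%, 6.19% and 9.20%, TRBV13-1 at 8.91%, 6.70% and 6.61%, and TRBJ2-7, the most used J segment in each library, at 20.2%, 17.3% and 22.1%. CDR3 of both chains had a median length of 14 residues in every library. Bases between the common V and J ends averaged 4.0, 3.96 and 3.87 in alpha chains and 10.7, 11.2 and 11.1 in beta chains.

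Clonal expansion was close to nil. Cells in clonotypes of 2 or more T cells were 1 of 247 (0.405%, 0.0102% to 2.23%), 4 of 373 (1.07%, 0.293% to 2.72%) and 7 of 328 (2.13%, 0.862% to 4.35%), and these intervals overlapped. Among antigen-experienced CD8 T cells the share was 37.1%, 36.1% and 27.4%, and among naive CD4 T cells 1.86%, 6.27% and 3.21%. No clonotype held 3 or more naive CD8 cells and none was found in naive CD8 cells of more than 1 library. Of 1027 distinct alpha chains, 1 was seen in naive CD8 cells of both wild-type libraries, the TRAV12D-3 chain printed above, and of 989 distinct beta chains none was seen in more than 1 library. With contigs of at least 3 UMIs, 0 of 166 cells in WT HFD and 0 of 250 in the knockout were in such clonotypes. Among cells so covered this allows up to 1.81% and 1.20%. Each of the 3 knockout pairs had an alpha contig of under 3 UMIs, so this minimum itself removed them. Their beta contigs all passed it, at 4 to 11 UMIs. The 0 in the knockout therefore sets no limit over all 328 cells.

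Naive CD8 and naive CD4 T cells come from the same libraries, which allowed a test with the 3 libraries as replicates and as a block. Of 9817 genes fitted in edgeR's quasi-likelihood test, 1338 (13.6%) passed a Benjamini-Hochberg adjusted p of 0.05, 669 higher in CD8 cells (6.81%) and 669 lower (6.81%). DESeq2 called 430 genes, and without WT HFD edgeR called 837. The libraries differ in diet and genotype, so the spread between them holds more than that of replicate mice. The naive CD4 cells held memory markers in every library, and their rule set no limit on S100a6, Pdcd1 or Tnfrsf4. In thinned cells, S100a6 was seen in 8.05%, 18.8% and 10.2% of them, against 2.44%, 1.88% and 3.67% of naive CD8 cells. Their S100a6 level was highest in WT HFD+HDCA, at 606 CPM beside 163 and 184 CPM in the other libraries. Mki67, a marker of dividing cells, was at 59.4 CPM there and at 11.7 and 0.735 CPM in the others. The part of memory-like CD4 cells in the genes called lower in CD8 cells was not tested. Without WT HFD+HDCA, edgeR called 1203 genes, 992 of them among the 1338, and none of the 1338 that could still be fitted had the opposite sign.

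Of 10 homing and exit genes fitted 4 were higher and 1 lower in naive CD8 cells (median log2 fold change -0.07). Itgae and Ccr9 separated the 2 cell types widely. Itgae was at 53.9, 61.6 and 62.7 CPM in naive CD8 cells and at 0.467, 2.16 and 0.735 CPM in naive CD4 cells (log2 fold change 5.75, SE 0.28, edgeR adjusted p = 3.82e-09). Ccr9 was at 62.4, 47.3 and 36.6 CPM against 0.933, 2.16 and 1.47 CPM (5.13, SE 0.27, adjusted p = 1.16e-08). Without WT HFD+HDCA the log2 fold change of Itgae was 6.59. Every library had the same order for both, with no overlap between the cell types. Selplg, a ligand for leukocyte rolling (0.44), also passed the test as higher, and Itgb7, the partner chain of Itgae and Itga4, passed as lower (-0.26).

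Several genes of cytotoxic cells were higher in naive CD8 than in naive CD4 T cells, while others were lower. Nkg7 was at 485, 614 and 560 against 15.4, 60.5 and 24.3 CPM (log2 fold change 4.21, SE 0.18, edgeR adjusted p = 1.67e-09), and Ly6c2 at 510, 618 and 515 against 39.2, 86.4 and 25 CPM (3.58, SE 0.16). Ctsw (2.99), Klrd1 (2.79), Cst7 (2.66), Prf1 (1.34) and Eomes, a transcription factor of memory CD8 cells (3.29), passed the test in the same direction. Of 12 cytotoxic genes fitted 5 were higher and 3 lower (median 0.21), the lower ones being Fasl (-2.28), Ifng (-1.73) and Tnf (-0.56), which are secreted or surface effectors. Ifng did not pass when 3 UMIs of Cd8a and Cd8b1 were required (edgeR adjusted p = 0.057) and was not fitted without WT HFD+HDCA. Of 4 fitted markers of natural killer cells and ILC1, Eomes was higher and Fcer1g, a signalling adaptor, was lower (-1.48), with a median of -0.25. Of 17 memory genes 4 were higher and 8 lower, among the latter S100a6 (-2.29), S100a4 (-3.08) and Itgb1 (-2.01). These all still passed without WT HFD+HDCA, at -1.41, -2.21 and -1.60. Naive CD4 cells of the remaining libraries also held S100a6 more often than naive CD8 cells, so leaving out WT HFD+HDCA did not remove memory-like cells. Xcl1 passed as higher (4.94), but a single cell held 49.7% of its UMIs with HDCA and another held 71.4% in the knockout library.

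Other large differences lay in genes of either lineage and in less known ones. Of 8 CD4 lineage genes fitted 7 were lower in CD8 cells, led by Zbtb7b, the transcription factor that sets the CD4 fate, at 0.998, 1.33 and 1.51 against 35.0, 39.4 and 39.7 CPM (log2 fold change -4.70, SE 0.27), and by Cd40lg, the helper ligand for B cells (-4.31, SE 0.14). With at least 3 UMIs of Cd8a and Cd8b1 these became -5.60 and -5.05. Runx3, which represses Cd4 in CD8 cells, was higher (0.89). Dapl1 (0.95, adjusted p = 3.50e-06 in edgeR) and Igfbp4 (-0.92, adjusted p = 1.31e-06 in edgeR) passed the test in opposite directions. Adgrg5, an adhesion receptor (5.54), Bend4 (5.34) and Trnp1 (5.81) were near the top, and Dyrk4 and Fxyd7 had 47 and 35 UMIs in naive CD8 cells and 0 in naive CD4 cells, at least 11-fold and 8.16-fold higher over the 3 libraries. Gm44174 had 591 UMIs against 0 and was at least 138-fold higher, and the gene models Gm43698 (7.91), Gm44175, Gm30513 and Gm46597 (5.11) were also among the 12 largest changes with the same sign in every library. On the lower side were Pdcd1, the inhibitory receptor PD-1 (-5.42), Ly6c1 (-4.57), Tnfrsf4, the costimulatory receptor OX40 (-4.13, and -3.50 without WT HFD+HDCA), Gpm6b (-4.35), Myo10 (-4.36), Lgals7 (-4.55), Pparg (-4.18), the gene models Gm57418 (-4.76) and Gm36496, and Cpne7, the last with 0 UMIs in CD8 cells and at least 10.5-fold lower. Leaving out WT HFD+HDCA moved Ly6c1 to -5.68 and Adgrg5 to 6.19, leaving out iNKT KO HFD+HDCA moved Ly6c1 to -3.92, and leaving out WT HFD moved Bend4 to 6.01. With at least 2 UMIs of Lef1 and Ccr7 required, Pdcd1 moved to -4.23 and Tnfrsf4 to -3.41, while Zbtb7b stayed at -4.69. Ly6c1 and Ly6c2 are near-identical neighbours, yet their counts lay in different cells. In cells thinned to 2000 UMIs, Ly6c1 was seen in 23.7% to 27.4% of naive CD4 cells and at most 0.209% of antigen-experienced CD8 cells, and Ly6c2 in 1.86% to 2.44% and 61.4% to 69.9%.

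**Figure D5:**
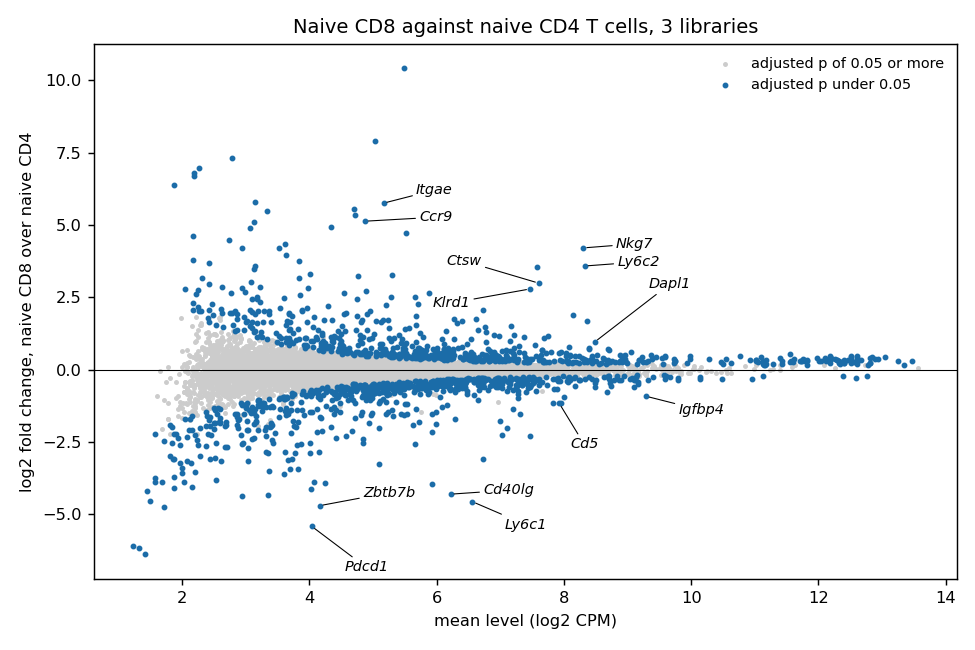
Log2 fold change of naive CD8 over naive CD4 T cells against mean level (log2 CPM) for each gene fitted in edgeR, with genes at an adjusted p under 0.05 in blue. Itgae, Ccr9 and Nkg7 lie well above 0 (5.75, 5.13 and 4.21), and Dapl1 and Igfbp4 lie on opposite sides of it.

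Signalling genes differed by less. Of 19 TCR signalling genes fitted 4 were higher and 7 lower in naive CD8 cells. Cd5 was at 155, 146 and 134 against 355, 370 and 329 CPM (log2 fold change -1.17), Cd28, the main costimulatory receptor, was lower (-0.96), and Cd6 was lower (-0.84), whereas Ptpn22, a phosphatase that dampens TCR signals (0.74), Thy1 (0.43), Themis (0.30) and Cd3d (0.24) were higher. Of 17 cytokine receptors 4 were higher, among them Il2rb (1.05) and Ifngr1 (0.46), and 2 lower, Il6ra (-0.61) and Il4ra (-0.48), while Il7r did not pass the test (0.02, edgeR adjusted p = 0.870). Antigen presentation genes were higher in 9 and lower in 1 of 19, as in H2-Q6 (0.84), H2-Q7 (0.44), Psme1 (0.48) and B2m (0.33), with H2-Q6 and H2-Q7 near copies of each other. Of 11 naive transcription factors none was higher and 4 were lower: Ets1 (-0.50), Satb1 (-0.35), Foxo1 (-0.25) and Tcf7 (-0.20). Quiescence genes passed as higher in 2 and lower in 5 of 11, with Rgcc, a cell cycle regulator (1.09), and Slfn2, a factor needed for quiescence (-0.56), at the 2 ends. Among sterol genes Cyp51 (-0.71) and Fdps (-0.49), both enzymes of sterol synthesis, were lower, and of 17 fatty acid genes Pparg alone passed, on 1 UMI in CD8 and 22 in CD4 cells and not in DESeq2 (adjusted p = 0.234).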

How the data were processed

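The authors deposited UMI counts per gene and barcode (Cell Ranger 8.0.1, per the file headers) for 33696 genes, and tables of productive TCR contigs with counts of UMIs and reads. Both mm10 and GRCm39 are named in the submitters' processing notes, so no coordinates are printed. A chemistry for the 3′ end is named in the labels. No source used here gives the annotation release. Chromosomes were read from a GRCm38.p6 gene table.

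Members were taken from the barcodes as deposited. The members, the 29 gene lists and the tests were chosen with earlier results of these data known. Counts were summed per cell type and library and given as CPM. Levels carry exact Poisson 95% intervals, ratios conditional exact intervals and shares exact Clopper-Pearson intervals. Limits for a count of 0 use 3 counts. PCR copies are collapsed by UMIs, and intervals cover counting error only. Genes at least 2-fold apart were counted among those with at least 50 UMIs over both libraries, without TCR and immunoglobulin segments and rule genes.

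Named genes are, per comparison of libraries, the 8 highest and 8 lowest ratios past 1.5-fold seen in at least 10 cells, with at most 20% of the UMIs in 1 cell, without gene models, mitochondrial, ribosomal, sex-linked and free-RNA genes (under 0.1 of the level in all other barcodes). To these were added the 12 largest edgeR fold changes each way between naive CD8 and naive CD4 T cells, up to 4 members of each list by UMIs, the given markers and rule genes, and receptors of interest. Other list members named passed the test or were singled out after their values were seen.

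Naive CD8 and CD4 sums were tested with edgeR 4.0.16 (R 4.3.3; TMM, filterByExpr, quasi-likelihood, library as block, Benjamini-Hochberg), with DESeq2 1.42.0 as an alternative. Sums of the same library deviated together from the means of their cell types (r across genes 0.118, 0.135 and 0.215), and each was highest with its own library. On simulated data of 9910 genes, the CD8 against CD4 fit recovered 19.5%, 74% and 92.5% of 200 genes changed by log2 0.5, 1 and 2, with 5, 10 and 9 false calls. All simulated sums shared a base profile apart from the changed genes, with the dispersions fitted to these data. Differences between libraries were not simulated, so the false calls do not give the error rate of the real fit. Junction bases are those matching neither the V nor the J end shared by over 50% of at least 10 chains of a segment. Scrublet in scanpy 1.11.5, numpy 2.4.6, pandas 2.3.3 and scipy 1.17.1 were used under Python 3.11.15. Alternatives were cell filters (at least 200 genes, under 10% mitochondrial UMIs, no doublets), stricter or thinned rules, other UMI minimums, TMM factors, contigs of at least 3 UMIs, distinct CDR3, 100 draws of 1954 T cells, and other fits. Of these, a minimum of 3 UMIs of Cd8a and Cd8b1 was chosen after seeing the data.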

Additional observations from a re-analysis of the deposited data

How the results depend on the processing

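Of 74 recomputed summary values, 62 stayed within the spread or factor used as a limit and 12 moved. With the rule read on cells thinned to 2000 UMIs the share of naive CD8 T cells was 15.5% in WT HFD and 14.9% in WT HFD+HDCA, so the order of the 2 wild-type libraries turned while the knockout stayed highest at 18.2%. With contigs of at least 3 UMIs the knockout share of TRAJ19 and higher was 1.85%, and the share in clonotypes of 2 or more was 0% in WT HFD and 0% in the knockout. Counts of genes at least 2-fold apart followed the UMI minimum: 282 at 20 UMIs, 11 at 100 UMIs and 30 with members thinned for WT HFD+HDCA over WT HFD, and 262 at 20 UMIs and 20 at 100 UMIs for the knockout. The quality and doublet filter gave 45 higher and 15 lower genes for WT HFD+HDCA over WT HFD and the rule on thinned cells 42 and 49, beside 39 and 26. Among named genes Usp50 reversed to a ratio of 1.06 with members thinned, and Ifngas1 stood at 1.32, Rundc1 at 0.165 and Plaur at 0.264. Between naive CD8 and naive CD4 T cells, DESeq2 called 430 genes (1000 at an unadjusted p under 0.05, beside 2487 in edgeR), 427 of them shared with edgeR, and Cpne7, Gm36496, Lgals7 and Pparg no longer passed. Without the replicate block 1007 genes passed, and leaving out a library gave 837 (without WT HFD) to 1203, with 0 genes reversed. Comparisons of libraries rest on 1 library per group and depth limits genes under about 50 UMIs.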
